A study of Mus musculus with 14 samples.

Results

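The enzymes that add or remove methyl groups at lysine 9 of histone H3 (H3K9) were examined in E4.0 blastocysts made by somatic cell nuclear transfer (SCNT) and by in vitro fertilization (IVF). The set held 10 genes out of the 27962 gene names on the array, namely the methyltransferases *Ehmt1*, *Ehmt2*, *Suv39h1*, *Suv39h2* and *Setdb1* and the demethylases *Kdm3a*, *Kdm4a*, *Kdm4b*, *Kdm4c* and *Kdm4d*. Members were found by the gene name of each probe, where all 5 demethylases carry an older name (Jmjd1a for *Kdm3a*, Jmjd2a to Jmjd2d for *Kdm4a* to *Kdm4d*), and 21 of the 41174 gene probes matched. RNA was measured on 14 one-color Agilent mouse arrays, 1 sample per array, of which 4 held fusion clones, 4 held injection clones, and 3 each held male and female embryos from IVF. Both kinds of clone were female and came from a cumulus cell, a somatic cell that surrounds the ovulated oocyte. The donor cell was joined to an enucleated oocyte by membrane fusion, or its nucleus was injected with a micromanipulator. By the methods, donor cells came from mice heterozygous for an *Xist* knockout on a BDF1 background (C57BL/6N × DBA/2 hybrids), recipient oocytes were BDF1 and reconstructed oocytes were cultured in KSOM medium, while the IVF controls were BDF1 embryos. The sample labels give no genotype, and they do not say whether each blastocyst sample was 1 embryo, so that p-values measure the spread between samples, which may be technical.

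H3K9 methylation marks silent chromatin. EHMT1 (GLP) and EHMT2 (G9a) act as a pair that adds methyl groups mainly in euchromatin, SUV39H1 and SUV39H2 complete the mark at pericentric heterochromatin, and SETDB1 is brought to retroelements and other targets by zinc finger proteins through TRIM28. The HP1 proteins, encoded by *Cbx1*, *Cbx3* and *Cbx5*, bind the methylated lysine. KDM3A removes the lower methylation states, whereas KDM4 enzymes remove the higher ones. In SCNT, the mark carried by the donor nucleus is known as a barrier to reprogramming, and added KDM4 enzymes are known to ease it. Here transcripts, not the mark or the proteins, were measured.

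On the 14 arrays, 57.4 to 65.2% of gene spots were well above background, with mean correlations within groups of 0.943 to 0.965 over probes. Each group was hybridized on a slide of its own. The clone arrays were read on another scanner model and with another software version than the IVF arrays, so that group and slide cannot be told apart. No gene spot had a processed intensity below 0 on a clone array, against 6790 to 9981 spots on each IVF array, and median background intensities were 23 to 33 for clones against 40 to 45.5 for IVF embryos. Epiblast and trophectoderm markers (*Pou5f1*, *Nanog*, *Cdx2*, *Krt8*) were well above background on every array, as were all 4 and 6 markers of these lists with a probe. Of the 8 cumulus cell markers, 4 were well above background at their brightest probe in fusion clones, 3 in injection clones, 5 in female and 7 in male embryos, each on at least 1 array. Their summed level was 1061 to 2736 in fusion clones, 1650 to 2511 in injection clones, 737 to 947 in female and 468 to 987 in male embryos. On every clone array *Amhr2* was the brightest marker in this sum. *Cyp19a1* was at 9.09 and 8.28 in injection clones 1 and 2, against 4.30 to 5.07 in females. None of the markers tested passed the adjusted threshold, and they went both ways, with *Amhr2* at 10.38 and 10.80 in the 2 kinds of clone against 9.03 in females and *Foxl2* at 5.66 and 5.61 against 6.28. Levels are log2 values of quantile-normalized intensity with a floor of 4 (an intensity of 16), and since hybridization differs between probes, they are compared only within a probe. In bulk RNA, fewer cells of a type and less RNA per cell cannot be told apart.

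Probes well above background on every array stood for 9 of the 10 genes, while *Kdm4d* was measured on 2 arrays. Of the 21 member probes, 13 were well above background on every array, 1 on 13 arrays, 6 on 1 to 3 arrays and 1 on none. The gene was represented by its brightest probe, and other probes are described where they bear on a result. An adjusted p is from limma with Benjamini-Hochberg adjustment over all probes tested, with a threshold of 0.05. The second rule, that of the methods, asks for an unadjusted p below 0.05 and a 2-fold difference.

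**Figure D1:**
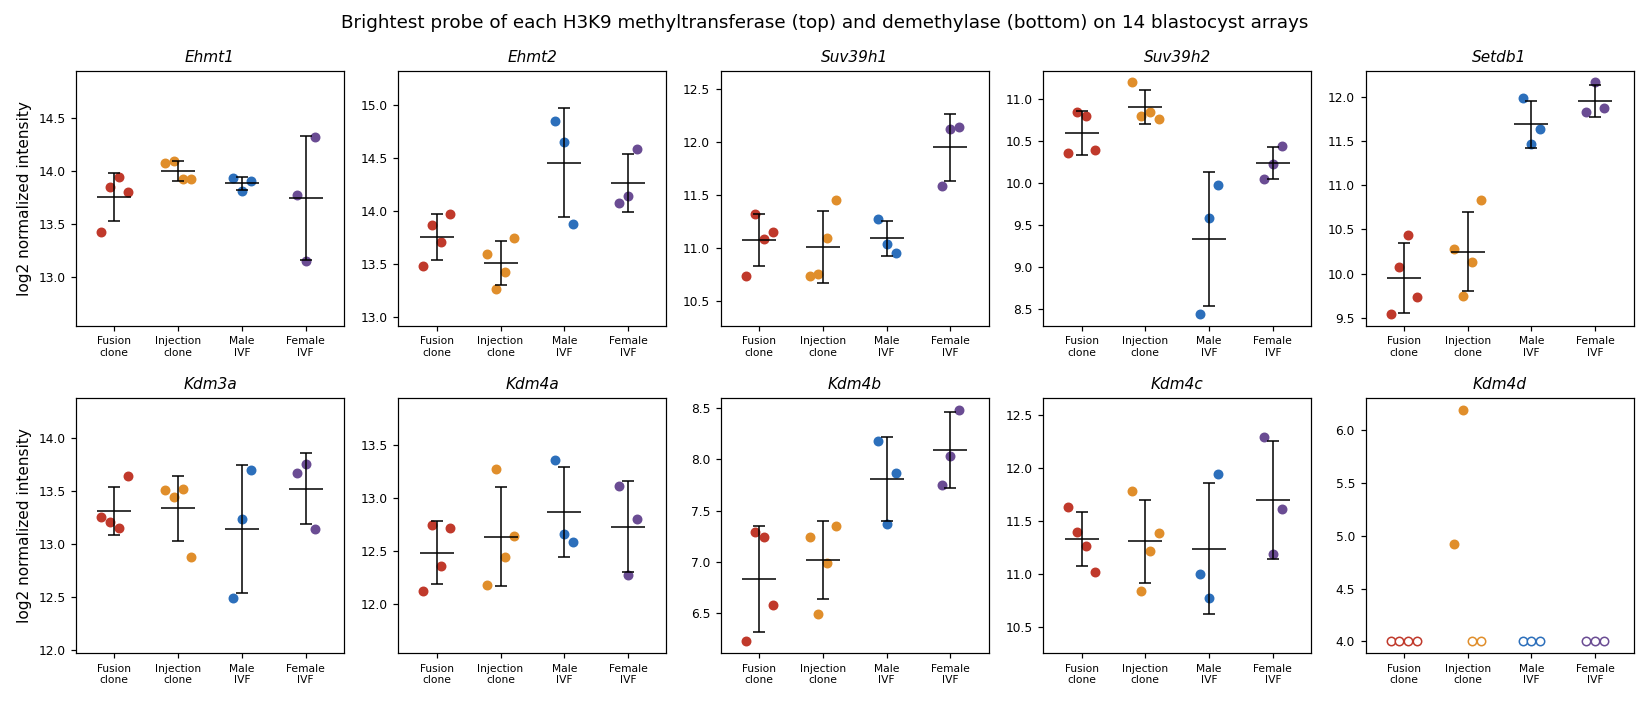
Log2 normalized intensity (vertical axes, each of its own range) of the brightest probe of the 5 methyltransferases (top) and 5 demethylases (bottom) in the clones (4 by fusion, 4 by injection) and the IVF embryos (3 of each sex). Points are arrays (open where not well above background), lines are group means with SD, and *Setdb1* on all 8 clone arrays lies below all 6 IVF arrays.

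Clones were first compared with female IVF embryos, which share their sex, to ask whether the enzymes of H3K9 methylation differ after nuclear transfer. Among the methyltransferases, *Setdb1* was about 4-fold lower in fusion clones and about 3-fold lower in injection clones, and passed the adjusted threshold in both. *Suv39h1* and *Ehmt2* were lower in both kinds of clone with no overlap of the groups, *Suv39h2* was higher with no overlap in injection clones, and *Ehmt1* differed by less than its spread. Among the demethylases, *Kdm4b* was more than 2-fold lower in both kinds of clone with no overlap, which passed only the methods' rule. *Kdm3a*, *Kdm4a* and *Kdm4c* overlapped between the groups.

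By count, 1 of the 9 members measured on every array passed the adjusted threshold in each comparison, both times *Setdb1*, and none rose. *Kdm4d* is left out of these counts, since it entered the test of injection clones only through the arrays in which it was high. Of all probes, 9.49% and 3.67% passed. By the methods' rule 2 of 9 members passed in each, beside 17.0% and 14% of all probes. The groups did not overlap for 4 and 5 of the 9 members, beside 25.8% and 20.9% of all probes. With 9 members, 1 call is no result about the list. Among probes well above background on every array of both groups, where these 9 members stand, 32.9% and 27.5% did not overlap. The median log2 difference was -0.37 over the 9 members in fusion clones and -0.39 in injection clones, beside -0.12 and -0.08 over all probes. Over autosomal probes well above background on every array of both groups it was -0.15 and -0.12. Both clone comparisons share the 3 female arrays.

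*Setdb1* (chromosome 3, 95323525 to 95357202 in GRCm38.p6) encodes the methyltransferase that silences retroelements. The log2 levels were 9.54, 10.08, 10.44 and 9.73 in fusion clones. They were 10.27, 9.75, 10.13 and 10.84 in injection clones. In female IVF embryos they were 11.82, 12.16 and 11.87, and in male IVF embryos 11.98, 11.46 and 11.63. The highest clone array thus lay below the lowest IVF array of either sex. The mean fell by 2.003 on the log2 scale in fusion clones (SE 0.26, 95% interval -2.62 to -1.39, n = 4 and 3, limma adjusted p = 0.0104), a 4.01-fold difference. In injection clones it fell by 1.70 (SE 0.27, interval -2.37 to -1.04, n = 4 and 3, limma adjusted p = 0.0371), a 3.26-fold difference. Against male IVF embryos the differences were -1.74 (limma adjusted p = 0.0217) and -1.44 (limma adjusted p = 0.0469), again without overlap. The 2 kinds of clone overlapped, with a difference of -0.30 (SE 0.28, interval -0.97 to 0.37, limma adjusted p = 0.814).

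The call in fusion clones was kept without any 1 array, with limma adjusted p from 0.0158 to 0.0349. In injection clones it was lost without injection clone 1, 2 or 3 (adjusted p = 0.0905, 0.0774 and 0.100) and without female embryo 1, 2 or 3 (0.0688, 0.0737 and 0.0872), and kept without injection clone 4 (0.0253), while the difference stayed between -1.90 and -1.54. A second *Setdb1* probe, 15060 bases further from the 3′ end, is annotated in the files to a splice form without the SET domain, the catalytic part. None of the arrays had it well above background.

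Markers of the blastocyst's cell types were read beside *Setdb1*. Of the 6 trophectoderm markers 1 passed in fusion clones, *Elf5*, which was at 10.31 to 11.18 against 13.11 to 14.60 in females (limma adjusted p = 0.0160), and none passed in injection clones, where it was at 8.10 to 11.39. The other trophectoderm markers did not pass in either comparison. The groups did not overlap for 3 of the 6 in fusion and 2 in injection clones. The shares were 32.9% and 27.5% of probes well above background on every array of both groups. Besides *Elf5*, *Krt18* was lower in both, at 17.84 to 18.27 and 17.61 to 18.13 against 18.305 to 18.78 in females. *Gata3* was higher in fusion clones, at 15.54 to 15.71 against 15.17 to 15.45. The summed level of the list, 670886 to 860425 in fusion and 596380 to 827422 in injection clones, overlapped with the 820484 to 981692 of female embryos. *Krt8* and *Krt18* are by far the brightest in this sum. Of the 5 primitive endoderm markers 1 passed in fusion clones, *Sox7*, at 4 to 6.43 against 9.40 to 12.60 in females (limma adjusted p = 0.0180), and none in injection clones, where it was at 4.53 to 8.45. In fusion clones 4 of the 5 differences were below 0, *Gata6* being the exception, and in injection clones all 5 were. The median log2 differences of the list were -2.54 and -3.57, beside -0.12 and -0.08 over all probes. *Gata4* was at 4 to 7.44 in fusion and 4 to 6.47 in injection clones against 7.31 to 9.37 in females. *Pdgfra* was at 9.79 to 14.44 and 10.97 to 13.90 against 13.50 to 13.97. The primitive endoderm sum, in which *Gata6* is by far the brightest, was 61413 to 160763 in clones and 94677 to 139766 in females.

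*Sox17*, which encodes a primitive endoderm factor, was at 10.64, 14.47, 14.998 and 4 (the floor) in fusion clones and 7.06, 4, 14.81 and 11.43 in injection clones, against 14.02 to 14.28 in females. In the same order of arrays, *Setdb1* was at 9.54, 10.08, 10.44 and 9.73 in fusion clones and 10.27, 9.75, 10.13 and 10.84 in injection clones. None of the 4 epiblast markers passed in either comparison, and their sums overlapped, from 42234 to 62735 in clones and 45066 to 59680 in female embryos. The part of these cell types in the *Setdb1* difference was not tested.

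*Suv39h2* was higher in injection clones at its brightest probe, though not past the threshold, and its probes disagreed in sign. Promoters are shown for *Setdb1*, which passed the threshold, for *Suv39h2* and for X-linked *Suv39h1*, to set the DNA before their starts side by side. Each is the 250 bases before the start in RefSeq (GRCm38.p6), 5′ to 3′ on the strand of the gene, with CCGGAA (an ETS core) and GGGCGG (a GC box) in capitals on either strand. They lie on the minus strand at chr3:95357203-95357452, chr2:3474987-3475236 and chrX:8074761-8075010.
Setdb1: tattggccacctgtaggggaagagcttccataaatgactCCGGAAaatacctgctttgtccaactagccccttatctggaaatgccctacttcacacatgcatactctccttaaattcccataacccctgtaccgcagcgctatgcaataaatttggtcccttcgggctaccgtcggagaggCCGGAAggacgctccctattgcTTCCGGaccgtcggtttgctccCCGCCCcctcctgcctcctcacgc
Suv39h2: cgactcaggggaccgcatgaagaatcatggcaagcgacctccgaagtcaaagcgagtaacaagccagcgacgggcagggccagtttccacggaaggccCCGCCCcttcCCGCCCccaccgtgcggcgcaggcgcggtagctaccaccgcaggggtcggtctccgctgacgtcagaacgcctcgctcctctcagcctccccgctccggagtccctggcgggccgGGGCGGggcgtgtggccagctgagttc
Suv39h1: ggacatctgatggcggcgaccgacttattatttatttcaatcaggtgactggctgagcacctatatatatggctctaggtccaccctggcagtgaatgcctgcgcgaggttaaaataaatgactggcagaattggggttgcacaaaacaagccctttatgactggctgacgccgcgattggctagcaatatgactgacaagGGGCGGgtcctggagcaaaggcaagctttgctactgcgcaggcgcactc
The *Setdb1* window held CCGGAA 3 times and GGGCGG once, *Suv39h2* held GGGCGG 3 times and *Suv39h1* once, and neither of these held CCGGAA. Of all 32851 windows, 3952 held CCGGAA and 10756 (32.7%) held GGGCGG. Windows were given for 9 members, *Kdm4b* being the exception, with 14 windows in all. CCGGAA was in 3 of the 14, those of *Setdb1*, *Kdm4d* and 1 of *Kdm3a*, and GGGCGG in 9. On both strands CCAAT was in 5 of the 14 (33.8% of all windows), CACGTG in 3 (6.02%) and TGACGTCA in 1, that of *Suv39h2* (1.55%). The CpG number reached the median of all windows (6) in 12 of the 14 windows of the members. The 2 windows without a CpG belong to 1 of the starts listed for *Kdm3a* and 1 of those for *Kdm4c*. These matches describe letters, not bound sites.

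*Suv39h1* (chromosome X, 8061171 to 8074760) was the only X-linked member. The levels were 11.58, 12.13 and 12.14 in female embryos, and 11.28, 11.04 and 10.96 in male embryos. They were 10.74, 11.33, 11.09 and 11.15 in fusion clones and 10.74, 10.76, 11.10 and 11.45 in injection clones. All clone and male arrays lay below all female arrays, while clones and males overlapped. Against female embryos the differences were -0.87 in fusion clones (SE 0.23, interval -1.42 to -0.32, limma adjusted p = 0.0622) and -0.94 in injection clones (SE 0.25, interval -1.54 to -0.33, limma adjusted p = 0.0920). Against male embryos they were -0.02 (limma adjusted p = 0.965) and -0.08 (limma adjusted p = 0.839), and males differed from females by -0.86 (SE 0.26, interval -1.50 to -0.21, limma adjusted p = 0.552). Over X-linked probes well above background on every array, the median difference was -0.24 in fusion clones (516 probes), -0.21 in injection clones (524 probes) and -0.32 in males (537 probes) against females. Over autosomal probes it was -0.15, -0.12 and -0.04.

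*Suv39h2* (chromosome 2, 3455815 to 3474986) had 5 probes. At the brightest, levels were 10.36, 10.85, 10.81 and 10.39 in fusion clones and 11.20, 10.80, 10.85 and 10.77 in injection clones. They were 10.06, 10.23 and 10.44 in female and 8.43, 9.59 and 9.98 in male embryos. Injection clones lay above every IVF array, and fusion clones overlapped with females. The difference from females was 0.36 in fusion clones (SE 0.21, interval -0.14 to 0.86, limma adjusted p = 0.323) and 0.67 in injection clones (SE 0.17, interval 0.25 to 1.08, limma adjusted p = 0.0872). From males it was 1.27 and 1.57 (limma adjusted p = 0.100 and 0.0684). The probe 9348 bases from the 3′-most one gave 0.87 (SE 0.45) and 1.38 (SE 0.37), with limma adjusted p = 0.275 and 0.0943. The 3′-most probe gave -0.18 (SE 0.35) and -0.08 (SE 0.34), and the probe 876 bases from it -1.03 (SE 0.90) and -0.15 (SE 0.55). The probes of this gene therefore disagreed in sign, and the mean over them differed by 0.04 in fusion and 0.45 in injection clones. The fifth probe, 16236 bases from the 3′-most one, was measured on fusion clone 4 only.

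**Figure D2:**
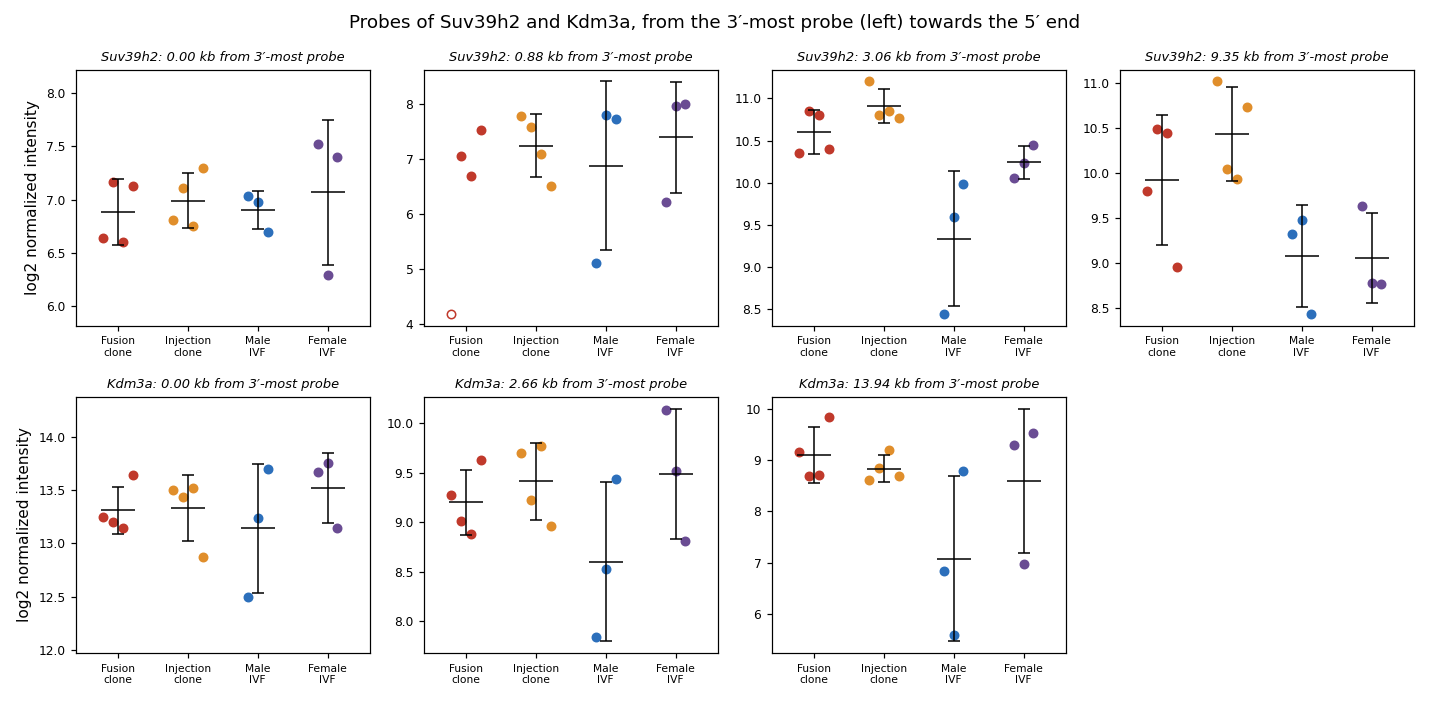
Log2 normalized intensity of the 4 probes of *Suv39h2* (top) and the 3 of *Kdm3a* (bottom) that were well above background on more than 3 arrays, from the 3′-most probe on the left, by group. Points are arrays (open where not well above background) and lines are means with SD, drawn where every array of the group was well above background. Of the *Suv39h2* probes, those 3057 and 9348 bases from the 3′-most one had higher means in both kinds of clone than in female embryos, and of the *Kdm3a* probes, the one at 13935 bases did, where female embryo 2 was at 6.98.

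*Ehmt2* (chromosome 17, 34898463 to 34914073) and *Ehmt1* (chromosome 2, 24790769 to 24919643) encode partners in 1 complex. *Ehmt2* levels were 13.48, 13.87, 13.70 and 13.97 in fusion clones and 13.60, 13.27, 13.43 and 13.75 in injection clones. They were 14.08, 14.14 and 14.58 in female and 14.85, 14.65 and 13.87 in male embryos. All clone arrays lay below the female arrays, while male embryo 3 lay within the range of the fusion clones. The difference from females was -0.51 in fusion clones (SE 0.21, interval -1.01 to -0.01, limma adjusted p = 0.177) and -0.76 in injection clones (SE 0.19, interval -1.23 to -0.28, limma adjusted p = 0.0853). *Ehmt1* ranged from 13.42 to 13.94 in fusion clones, 13.92 to 14.10 in injection clones, 13.81 to 13.93 in male and 13.15 to 14.32 in female embryos. The female range covered all other arrays, and the differences were 0.00 (SE 0.30, interval -0.73 to 0.74) and 0.25 (SE 0.28, interval -0.42 to 0.93). A second *Ehmt1* probe, 45109 bases from the first, was measured on fusion clone 4 only.

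The demethylase with the largest difference was *Kdm4b* (chromosome 17, 56325970 to 56403774), which encodes an enzyme that removes the higher methylation states. The levels were 6.22, 7.29, 7.24 and 6.58 in fusion clones and 7.25, 6.49, 6.98 and 7.35 in injection clones. They were 7.75, 8.03 and 8.49 in female and 8.18, 7.37 and 7.87 in male embryos. The highest clone value, 7.35, lay below every IVF value. The mean differed from females by -1.26 in fusion clones (SE 0.34, interval -2.07 to -0.44, limma adjusted p = 0.0682), or 2.39-fold. In injection clones the difference was -1.07 (SE 0.28, interval -1.75 to -0.39, limma adjusted p = 0.0897), or 2.10-fold. Against males it was -0.98 and -0.79 (limma adjusted p = 0.141 and 0.171). With background corrected by normexp, the differences from females were -0.82 and -0.67, under 2-fold. The part of the different background levels of clone and IVF arrays in this dim probe was not tested.

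*Kdm3a* (chromosome 6, 71588970 to 71632990), *Kdm4a* (chromosome 4, 118136957 to 118180090) and *Kdm4c* (chromosome 4, 74242497 to 74405864) were well above background on every array. *Kdm3a* ranged from 13.14 to 13.64 in fusion clones, 12.87 to 13.52 in injection clones, 12.49 to 13.69 in male and 13.14 to 13.75 in female embryos. *Kdm4a* ranged from 12.13 to 12.74, 12.19 to 13.28, 12.59 to 13.36 and 12.27 to 13.12 in the same order. *Kdm4c* ranged from 11.02 to 11.63, 10.85 to 11.79, 10.78 to 11.94 and 11.19 to 12.29. In each of these genes the groups overlapped. The differences from females ranged from -0.37 to -0.21 in fusion clones and from -0.39 to -0.09 in injection clones. The lowest bound of the 95% intervals was -1.20 (*Kdm4c*) and the highest 0.70 (*Kdm4a*), both in injection clones. A 2-fold difference was thus inside the interval of *Kdm4c* and outside those of *Kdm3a* and *Kdm4a*. Both other *Kdm3a* probes, 2657 and 13935 bases from the 3′-most one, also overlapped between clones and females. At the farther one, male embryos 1 and 2 were at 6.85 and 5.60, below all clones, which ranged from 8.61 to 9.84. Further *Kdm4a* and *Kdm4c* probes were measured on 1 to 3 arrays, and the third *Kdm4c* probe lies on the strand opposite to the gene.

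*Kdm4d* (chromosome 9, 14462548 to 14500522) had 1 probe, which was well above background on injection clones 1 (4.92) and 2 (6.19) only. All other arrays were at the floor. No fold difference is given, since 2 of 4 injection clones measured it and the remaining ones were at the floor like the female embryos. No test is read from it, since injection clones 1 and 2 alone brought it past the filter.

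**Figure D3:**
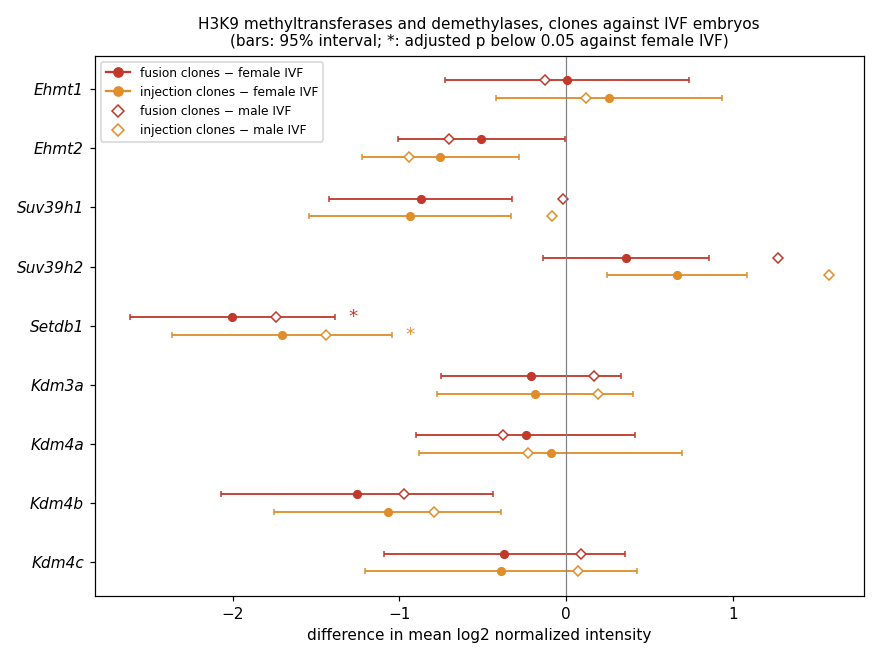
Differences in mean log2 normalized intensity (horizontal axis) of 9 members between 4 fusion or 4 injection clones and 3 female IVF embryos (filled points with 95% intervals) or 3 male IVF embryos (open points, no interval drawn). Stars mark limma adjusted p below 0.05 against female embryos, which *Setdb1* alone reached in both comparisons. *Suv39h1* lay near 0 against male embryos, and *Kdm4d*, at the floor on all but 2 arrays, is not drawn.

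Fusion and injection clones were then compared with each other to see whether the way of transfer mattered. None of the 9 members measured on every array passed either rule, beside 0% of 32303 probes by the adjusted p and 2.38% by the methods' rule. No member had an unadjusted p below 0.05 in limma, where 6.17% of all probes did, and no member's groups were free of overlap, as for 3.31% of all probes. The differences ranged from -0.31 (*Suv39h2*, interval -0.70 to 0.09) to 0.25 (*Ehmt2*, interval -0.12 to 0.61) among them. The 95% intervals of all 9 lay within 1 of 0 on the log2 scale, and so left out a 2-fold difference. The arrays of the 2 groups were on separate slides here too.

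Male and female IVF embryos were then compared, both without nuclear transfer. None of 9 members passed the adjusted threshold, beside 0.0593% of 32046 probes, and none passed the methods' rule, beside 5.79%. In limma 1 member, *Suv39h1*, had an unadjusted p below 0.05 (7.76% of all probes). At the brightest probe, the groups did not overlap for *Suv39h1* and *Suv39h2*, beside 12.8% of all probes, and both were lower in males. There *Suv39h2* differed by -0.91 (SE 0.45, interval -2.02 to 0.20, limma adjusted p = 0.654) and *Setdb1* by -0.26 (SE 0.25, interval -0.88 to 0.36, limma adjusted p = 0.724). At the *Suv39h2* probe 9348 bases from the 3′-most one, means were 9.08 in males and 9.06 in females. At the 3′-most probe they were 6.90 and 7.07, and the sexes overlapped at both. The *Kdm4b* difference was -0.28 (SE 0.33).

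Other genes of H3K9 methylation were read from a list of 23. In fusion clones against female embryos 5 of 22 tested passed the adjusted threshold, 2 higher and 3 lower, and in injection clones 1 of 23 did, which was lower, beside the 9.49% and 3.67% of all probes. Of the cofactors of methyltransferases, 8 of 9 differences were below 0 in each comparison, where 14329 of 32458 and 15123 of 32840 probes were above 0, and 1 passed. This was *Morc2a*, whose product works with the HUSH silencing complex and SETDB1. Its levels were 12.24, 12.48, 12.63 and 12.12 in fusion clones, 12.41, 12.28, 12.20 and 12.77 in injection clones, and 13.81, 13.69 and 13.78 in female embryos. No clone array reached the female arrays, and the means fell by 1.39 (SE 0.18, limma adjusted p = 0.0108) and by 1.35 (SE 0.17, limma adjusted p = 0.0250). When its probes were averaged, the differences were -0.14 and -0.70 (limma adjusted p = 0.659 and 0.264), since a second, dimmer probe of *Morc2a* had the opposite sign in fusion clones, at 1.11 (SE 0.40, limma adjusted p = 0.139), and gave -0.05 in injection clones (SE 0.56). Without 1 array the injection call was lost in 5 of 7 cases (adjusted p up to 0.0739).

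*Trim28*, which links SETDB1 to zinc finger proteins, was at 14.76, 15.25, 15.47 and 14.58 in fusion clones and 14.22, 14.92, 14.96 and 15.07 in injection clones. It was at 15.97, 16.13 and 15.85 in female embryos and 16.74, 15.96 and 15.74 in male embryos, above all clones. The differences from females were -0.97 (SE 0.26, limma adjusted p = 0.0659) and -1.19 (SE 0.24, limma adjusted p = 0.0535), neither past the threshold, though 3 and 4 of 12 alternatives were. Of the 9 cofactors, the groups did not overlap for 4 in each comparison, beside 25.8% and 20.9% of all probes. Among probes well above background on every array of both groups, where these 9 stand, the shares were 32.9% and 27.5%. *Tasor*, *Pphln1* and *Atf7ip*, whose products also work with HUSH or SETDB1, overlapped with females in both at the brightest probe. A dimmer *Atf7ip* probe was lower in fusion and injection clones without overlap. It was at 11.61 to 12.49 and 11.67 to 12.48 against 12.74 to 13.72 in females. A dimmer *Tasor* probe was higher without overlap, at 9.74 to 10.42 and 8.01 to 9.19 against 7.29 to 7.76. Another *Tasor* probe was lower in both without overlap, by -1.01 in fusion clones (SE 0.41, limma adjusted p = 0.173).

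The HP1 genes did not move 1 way. *Cbx1* was higher in clones than in females, at 14.39 to 14.75 in fusion clones, 14.24 to 14.57 in injection clones and 13.23 to 13.96 in female embryos. The difference was 0.96 in fusion clones (SE 0.22, limma adjusted p = 0.0437) and 0.83 in injection clones (SE 0.21, limma adjusted p = 0.0802). Male embryos, at 14.51 to 14.70, were at the level of the clones, so that against males the differences turned to -0.03 and -0.16. A dimmer *Cbx1* probe had the opposite sign against females, at -0.10 in fusion clones (SE 0.22, limma adjusted p = 0.792) and -0.61 without overlap in injection clones (SE 0.27, limma adjusted p = 0.245). The fusion call was lost when probes were averaged (0.43, limma adjusted p = 0.204) and in 6 of 7 cases without 1 array. *Cbx5* was at 10.65 to 11.11 in fusion clones, 10.51 to 11.09 in injection clones and 11.54 to 11.61 in female embryos. It fell by 0.73 in fusion clones (SE 0.17, limma adjusted p = 0.0459), and the difference in injection clones was -0.70 (SE 0.18, limma adjusted p = 0.0871). The fusion call was lost in all 7 cases without 1 array (adjusted p from 0.0711 to 0.121) and when probes were averaged (-0.225, limma adjusted p = 0.671). *Cbx3* was at 14.83 to 15.29 in fusion and 14.83 to 15.19 in injection clones and 14.45 to 14.63 in female embryos, with differences of 0.49 and 0.43 (limma adjusted p = 0.121 and 0.143). A dimmer *Cbx3* probe was also higher without overlap, at 9.24 to 9.78 and 8.94 to 10.09 against 6.08 to 8.85 in females. Male embryos, at 14.24 to 14.99 and 8.20 to 10.04, overlapped with the clones at both probes.

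Of 7 other demethylases, *Kdm7a*, whose product removes lower methylation states of H3K9 and H3K27, passed in fusion clones and was higher. Its levels were 13.04, 12.66, 13.34 and 12.59 in fusion clones and 12.46, 13.01, 12.69 and 11.73 in injection clones. They were 8.60, 11.50 and 9.93 in female and 10.67, 11.99 and 11.04 in male embryos. The differences from females were 2.90 (SE 0.66, limma adjusted p = 0.0437) and 2.46 (SE 0.70, limma adjusted p = 0.107), and from males 1.67 and 1.24. The 3 female arrays were far apart, and without 1 of them the fusion difference ranged from 2.19 (without female embryo 1, limma adjusted p = 0.0629) to 3.64 (without female embryo 2). The call was lost in 6 of 7 cases without 1 array, and when probes were averaged the differences were 1.46 (limma adjusted p = 0.117) and 1.31. The remaining call in fusion clones was *Kdm3b*, which fell by 0.82 (limma adjusted p = 0.0458). Its levels were 11.48 to 11.92 in fusion clones and 12.29 to 12.72 in female embryos. Injection clones, at 11.38 to 11.94, also lay below all female arrays, though the gene did not pass there. Male embryos, at 11.77 to 12.57, overlapped with both kinds of clone. At the brightest probe, none of the other methyltransferases (*Setdb2*, *Prdm2*, *Mecom*, *Prdm16*) passed in either comparison. A dimmer *Prdm2* probe was higher in fusion clones without overlap, at 9.94 to 10.35 against 7.98 to 8.41 in females. In injection clones it was at 8.17 to 9.85, which overlapped with females.

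**Figure D4:**
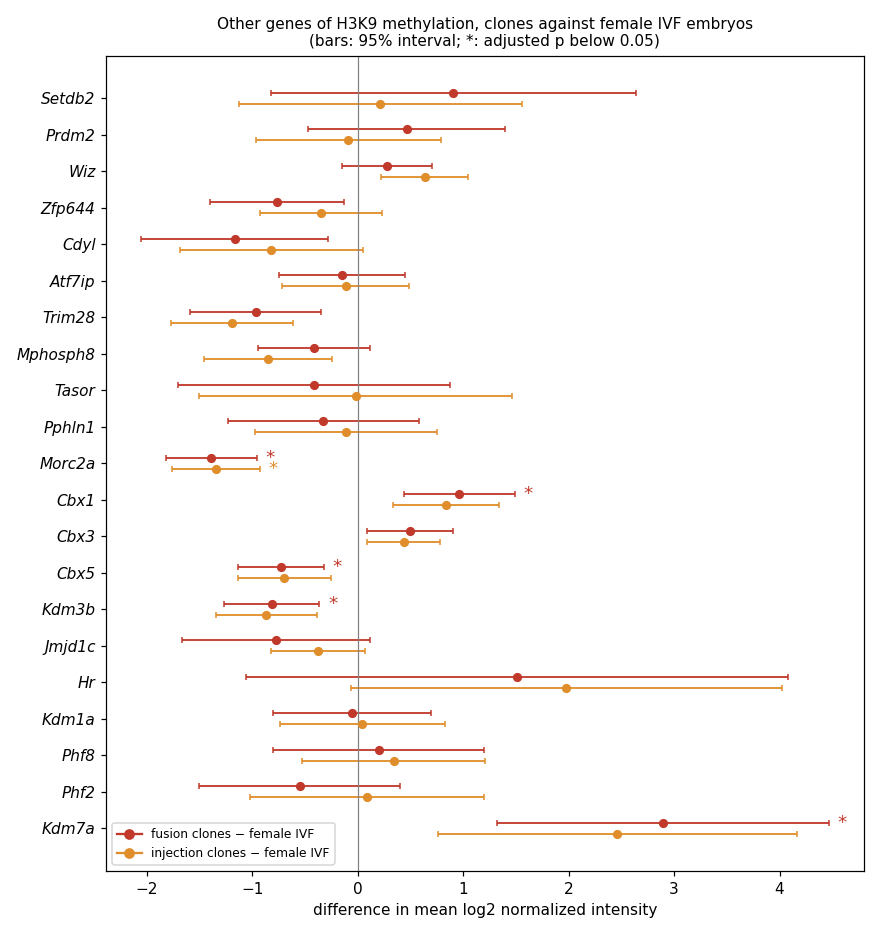
Differences in mean log2 normalized intensity (horizontal axis) of 21 other genes of H3K9 methylation between 4 fusion (red) or 4 injection clones (orange) and 3 female IVF embryos, with 95% intervals. *Mecom* and *Prdm16* are not drawn. Stars mark limma adjusted p below 0.05, reached by 5 genes in fusion clones and by *Morc2a* alone in injection clones.

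The probes most like *Setdb1* over the 14 arrays, among 15757 probes with a symbol and well above background on all arrays, were those of *Actl6a* (r = 0.975), *Eif3c* (r = 0.975) and *Morc2a* (r = 0.965). For *Kdm4b* they were *Adh5* (r = 0.958), *Cic* (r = 0.948) and *Zfp2* (r = 0.928). The 14 arrays fall into clones and IVF embryos, and these values follow from that split as well as from differences between arrays of a group. *Actl6a*, for example, ranged from 11.72 to 12.53 on the clone arrays and from 12.94 to 13.51 on the IVF arrays.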

How the data were processed

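Total RNA of 14 E4.0 blastocyst samples was amplified in 2 rounds and its Cy3-labeled product was read on Agilent arrays of the mouse genome. Groups and replicate numbers were taken from the labels. The authors deposited, for each array, processed intensity values of spots on a linear scale, background-subtracted by Feature Extraction (10.5.1 in the submitters' processing notes, 10.5.1.1 and 9.5.3.1 in the headers) and not normalized between arrays. The deposited log2 table equals the log2 processed intensity less a shift per array and a center per probe, and was used as an alternative.

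Intensities of gene spots, with outlier spots set to missing, were brought to 1 distribution by quantile normalization of all 14 arrays. Values under 16 were raised to 16 before log2, and spots of the same probe were averaged. Probes that 1 or more arrays of the compared groups showed well above background entered limma 3.58.1 (R 4.3.3, functions lmFit and eBayes) with those 2 groups only, and p-values were adjusted over all of them by the Benjamini-Hochberg method. The number of arrays limits the precision. The tests were tried on simulated data. Background shares (the percentages beside counts of members) are over all probes tested.

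Gene names came from the array files and the RefSeq genes of GRCm38.p6. A symbol was found for 32719 (79.5%) of the 41174 gene probes. All 10 members and 23 of 23 other genes had a probe, as did 29 of 30 marker genes, *Fgf4* being the exception. The members and lists were chosen with earlier results of these data known. Named are all members, of the other genes the 3 with the largest difference among those past the adjusted threshold in each clone comparison, *Cbx1*, *Cbx3*, *Cbx5* and *Trim28*, and the 3 probes most like the methyltransferase and the demethylase with the largest mean difference; *Kdm3b* was named after its value was seen. Markers were of epiblast, trophectoderm, primitive endoderm, cumulus cells and oocytes. None of the 6 oocyte markers passed the adjusted threshold in a clone comparison, and their summed levels were 362 to 1871 in clones and 576 to 1141 in female embryos.

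Replicate numbers in the labels may pair male with female arrays, since deviations from the group means of same-numbered arrays correlated at 0.109, 0.129 and 0.110 over probes. The male against female values given are from the fit without a block. The fit with the number as a block changed no call of a member there. In the other comparisons not every pair passed 0.1. Alternatives were scaling to the 75th percentile, normexp (offset 50, on median spot intensities, which all files hold), the deposited log2 table, floors of 1 and 32, stricter and no filters, all groups in 1 fit, an intensity trend, the mean over probes of a gene, the replicate block, male controls and leaving out each array. Scripts ran in Python 3.11.15 and drew figures with matplotlib 3.10.9.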

Additional observations from a re-analysis of the deposited data

Results flagged for a closer look

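Of 53 groups of 4 clone arrays examined, 6 held 1 array far from the other 3. Chance gives about 1 in 20 for continuous values, a rate that does not apply where the other arrays are at the floor. In 1 of these the brightest probe of a gene was concerned, *Kdm3a* in injection clone 4 (12.87), below the other injection clones. The other 5 were dim probes with the other 3 fusion clones at the floor of 4, except that fusion clone 1 was at 4.25 for *Kdm4a*. They were a second probe of *Ehmt1* in fusion clone 4 (5.38), *Kdm4a* in fusion clone 3 (5.72), *Kdm4c* in fusion clone 1 (5.32), the second *Setdb1* probe, well above background on no array, in fusion clone 4 (4.51) and a probe of *Suv39h2* in fusion clone 4 (4.81).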

How the results depend on the processing

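*Setdb1* kept its direction in every alternative. Its adjusted p in fusion clones was below 0.05 in 11 of 12 alternatives other than leaving out an array, and in injection clones in 8 of 12. The exceptions were the replicate block (adjusted p = 0.131 and 0.165) in both, and in injection clones the deposited log2 values (0.0537), the floor of 1 (0.0576) and no filter (0.0522). With the replicate number as a block the fourth clones, which have no partner, leave the estimate. In that fit 0 members, 0 partner genes and 0 probes were called in either clone comparison. Same-numbered arrays correlated at -0.072 to 0.057 there, and other pairs of arrays at -0.046 to 0.067. No pairing by number was thus seen, but with so few arrays the correlations cannot exclude one. Blocked *Setdb1* differences were -1.93 and -1.90.

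The number of members called in fusion clones was 2 with normexp (with *Suv39h1*, adjusted p = 0.0300) and with an intensity trend (0.0493), and 3 with probes well above background on every array (*Suv39h1* 0.0451, *Kdm4b* 0.0430) and with all 4 groups in 1 fit (0.0297 and 0.0285). In injection clones it was 0 with the deposited values, the floor of 1 and no filter, and 2 with all 4 groups in 1 fit (*Suv39h1* 0.0241). By the methods' rule it was 1 with normexp in each clone comparison and 1 with scaling to the 75th percentile in injection clones. Partner calls, 6 over both clone comparisons, were 1 with the deposited values, the floor of 1 or the mean over probes and 11 with all 4 groups in 1 fit. Leaving out each array gave 1 to 1 member in fusion clones, 0 to 1 in injection clones, 1 to 3 by the methods' rule in injection clones, 0 to 1 by it for males against females, and 1 to 6 partner calls. Without 1 array, *Cbx1* and *Kdm7a* passed in fusion clones in 1 of 7 cases each and *Cbx5* in none (adjusted p up to 0.104, 0.107 and 0.121). *Morc2a* passed in 7 of 7 in fusion and 2 of 7 in injection clones. *Trim28* passed in fusion clones with scaling to the 75th percentile (0.0441), probes well above background on every array (0.0454) and an intensity trend (0.0440), and in injection clones with normexp (0.0423), every-array probes (0.0416), all 4 groups in 1 fit (0.0300) and an intensity trend (0.0433).

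Probes called in all were 3079, 1205, 0 and 19 in the order fusion, injection, fusion against injection, and males against females, and ranged under alternatives from 0 to 4190, 0 to 3098, 0 to 11 and 0 to 205.

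Signs that turned were those of uncalled members and of *Cbx1*. In fusion clones against females, *Ehmt1* was -0.0684 with percentile scaling, -0.0356 with deposited values, -0.0112 with the replicate block and -0.13 against males, *Kdm3a* 0.0014 with the mean over probes and 0.17 against males, *Kdm4a* 0.12 with the mean over probes, *Kdm4c* 0.0877 and *Cbx1* -0.0308 against males. In injection clones, *Kdm3a* was 0.19, *Kdm4c* 0.0685 and *Cbx1* -0.16 against males. Between fusion and injection clones, means over probes were 0.0475 for *Ehmt1*, 0.0087 for *Kdm3a* and 0.17 for *Kdm4a*, normexp gave 0.0205 for *Kdm3a* and -0.0237 for *Kdm4c*, and *Kdm4c* was -0.0184 with percentile scaling and -0.0133 with deposited values. Without 1 array, ranges that crossed 0 were -0.29 to 0.29 for *Ehmt1* in fusion and -0.0437 to 0.54 in injection clones, and -0.32 to 0.10 for *Kdm4a* in injection clones. Between the clones they were -0.0268 to 0.21 (*Suv39h1*), -0.18 to 0.0372 (*Kdm3a*), -0.30 to 0.0629 (*Kdm4a*), -0.36 to 0.0191 (*Kdm4b*) and -0.14 to 0.18 (*Kdm4c*). Between males and females they were -0.16 to 0.42 (*Ehmt1*), -0.0042 to 0.48 (*Ehmt2*) and -0.11 to 0.33 (*Kdm4a*). The cause was not tested.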
